A study of Mus musculus with 6 samples.

Results

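Cytochrome c oxidase, or complex IV, is the last enzyme of the mitochondrial respiratory chain, where electrons from cytochrome c reduce oxygen to water. Its catalytic core is made from mitochondrial DNA, and the small subunits around it come from nuclear genes. Subunits 6A, 7A and 8 each exist in a form made in most tissues and a form made in heart and skeletal muscle, and the muscle forms are known to become more prominent as muscle matures. In the mouse the muscle forms are Cox6a2, Cox7a1 and Cox8b, and their ubiquitous partners are Cox6a1, Cox7a2 and Cox8a. These 6 genes were all found, by symbol, among the 20950 entries of the deposited table, and all 6 belong to the 10726 genes that averaged 1 FPKM or more. They were chosen by their symbols at a time when their FPKM values in these same libraries were known. Their levels and changes are therefore given as descriptions, with no test.

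The cells were C2C12, a line of mouse myoblasts able to form myotubes in low serum, sequenced as 6 mRNA libraries in 5 conditions. Growing cells were kept in 10% FBS (fetal bovine serum), and differentiating cells in 2% HS (horse serum) or 0.2% FBS, each with or without exosomes prepared from FBS. The exosomes were added in the amount held by 10% FBS. The condition 0.2% FBS + exosome had 2 libraries (replicates 1 and 2), and the other 4 conditions had 1 library each, so the spread of a control culture is unknown. Comparisons of 1 library with 1 library therefore carry no replicate check. All libraries come from 1 cell line, and nothing in the sources used here says that replicates 1 and 2 came from separate cultures. FPKM counts reads per length of transcript and per depth of sequencing, the scale on which the levels of different genes are set side by side here. The depth, estimated from the spacing of low FPKM values, was between 33300000 and 39400000 reads.

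Changes are differences of log2(FPKM + 1), and a gene was counted as past the limit when this difference was above 1 or below −1. For exosomes in 0.2% FBS, both replicates were averaged and set against the 0.2% FBS library. Over the 10726 genes the median of this change was 0.14 as deposited and 0.04 after each library was scaled to the same 75th percentile, against −0.04 and −0.006 in 2% HS. The share of a muscle isoform in its pair, a ratio within 1 library, does not depend on that scaling. The 6 myotube markers (Myog, Tmem8c, Myh3, Ckm, Acta1 and Des) summed to 4618 FPKM in 10% FBS, 9533 in 2% HS, 8931 in 2% HS + exosome, 10402 in 0.2% FBS, and 4836 and 3574 in replicates 1 and 2 of 0.2% FBS + exosome. In these cultures, fewer myotubes and less RNA per myotube cannot be told apart. Brown fat also carries Cox7a1 and Cox8b. Of its markers, Ucp1 did not exceed 0.0196 FPKM and Prdm16 was at 0 in every library, while Dio2 was detected in each. Over the 9 adipocyte markers the summed level was between 9.23 and 21.5 FPKM, with 3 to 6 of the 9 at 0. Most of this sum was Dio2, the enzyme that activates thyroid hormone, at 6.47 FPKM in 10% FBS, 9.77 in 2% HS, 16.6 in 2% HS + exosome, 19.2 in 0.2% FBS, and 10.0 and 16.6 in the replicates of 0.2% FBS + exosome. The Dio2 change with exosomes was −0.87 and −0.20 in the replicates of 0.2% FBS (mean −0.54) and 0.71 in 2% HS. Pparg, the other adipocyte marker averaging 1 FPKM or more, went the opposite way, at 0.18 in 0.2% FBS and −0.10 in 2% HS. Of 5 cardiomyocyte markers 1 or 2 were at 0, and their sum was between 4.77 and 11.8 FPKM. Most of it was Myh6, a cardiac myosin heavy chain. Its log2 level differed from that in 10% FBS by 0.07 in 2% HS and by 1.08 in 0.2% FBS. With exosomes Myh6 differed by −1.15 in 0.2% FBS and by 0.62 in 2% HS. Nppb, the other cardiomyocyte marker averaging 1 FPKM or more, differed by 0.03 and −0.41. The summed level of the 3 myoblast markers was between 95.4 and 116 FPKM, most of it Myod1 (−0.23 with exosomes in 0.2% FBS and −0.09 in 2% HS). Myf5, another myoblast marker, went opposite to Cox6a2, with −1.05 in 0.2% FBS against 10% FBS, 0.96 with exosomes in 0.2% FBS and −0.52 with exosomes in 2% HS. The part of these markers in the results was not tested.

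Cox6a2 was the muscle isoform that differed most between libraries. It encodes the heart and muscle form of subunit 6A, the subunit through which adenine nucleotides modulate the enzyme. Cox6a2 stood at 33.2 FPKM in 10% FBS, 146 FPKM in 2% HS, 311 FPKM in 2% HS + exosome and 154 FPKM in 0.2% FBS. In 0.2% FBS + exosome it was at 42.4 FPKM in replicate 1 and 26.3 FPKM in replicate 2. The libraries of reduced serum without exosomes were thus near each other and well above growing cells, the exosome libraries of 0.2% FBS lay on both sides of growing cells, and the exosome library of 2% HS was the highest of all. The highest level was 11.9 times the lowest. With exosomes in 0.2% FBS, the log2 change was −1.84 for replicate 1 and −2.51 for replicate 2 (mean −2.17, SD 0.48, n = 2), and in 2% HS it was 1.09. Scaling to the same 75th percentile gave −2.28 and 1.13. Against 10% FBS, its level was 4.38 times as high in 2% HS and 4.64 times as high in 0.2% FBS.

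Cox6a1, the ubiquitous form of subunit 6A, was at 298 FPKM in 10% FBS, 300.1 FPKM in 2% HS, 232 FPKM in 2% HS + exosome and 313 FPKM in 0.2% FBS. Its levels in 0.2% FBS + exosome were 336 FPKM (replicate 1) and 419 FPKM (replicate 2). Its lowest level was in the library where Cox6a2 was highest, and its highest level was where Cox6a2 was lowest. The log2 change with exosomes was 0.10 and 0.42 in the replicates of 0.2% FBS (mean 0.26, SD 0.22, n = 2) and −0.37 in 2% HS, none of which is past the limit. Cox6a2 made up 10.0% of the FPKM of the pair in growing cells, 32.7% in 2% HS and 33.0% in 0.2% FBS. With exosomes this share was 57.3% in 2% HS, against 11.2% and 5.90% in replicates 1 and 2 of 0.2% FBS. The 2% HS + exosome library was the only one in which a muscle isoform exceeded its partner, by a factor of 1.34. On the log2 scale the balance of Cox6a2 to Cox6a1 differed with exosomes by −1.94 and −2.93 in 0.2% FBS (mean −2.44, SD 0.70, n = 2) and by 1.46 in 2% HS. The sum of both isoforms was less variable than Cox6a2 alone, at 331 FPKM in 10% FBS, 446 in 2% HS, 543 in 2% HS + exosome, 467 in 0.2% FBS, and 379 and 445 in the replicates of 0.2% FBS + exosome.

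The coding sequences of Cox6a2 (291 bases) and Cox6a1 (336 bases) are identical at 188 of 291 aligned bases (64.6%), and their longest common run has 12 bases. It is shown in capitals within 30 coding bases of each gene, as the stretch in which the partners share the most letters in a row. On mm10 the stretch of Cox6a2 lies between chr7:128205798-128205914 and that of Cox6a1 between chr5:115345912-115348579, both on the minus strand and both joined across an intron:
Cox6a2: cgcatccgaACCAAGCCCTTCgcctggggg
Cox6a1: cgcatcaggACCAAGCCCTTCccctgggga

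The longest coding runs shared by partners, of 10 to 12 bases, are shorter than the reads of 75 bases. The untranslated parts of partners were not compared. Of the 497 stretches of 75 bases in the Cox6a1 transcript, 32 (6.44%) also occur in 1 annotated gene outside the 6, not analysed here. The other 5 members share 0 of theirs with annotated genes outside the 6. Cox6a2 (chr7:128205435-128206387, minus strand, 3 exons) overlaps Itgad on the opposite strand. Itgad did not exceed 0.195 FPKM in any library. Cox6a1 lies at chr5:115345642-115348981 on the minus strand, also with 3 exons. The values of Cox6a2 correspond to an estimated 420 to 5092 reads, and those of Cox6a1 to 2936 to 5190, assuming fragments of 200 bases. Counting the whole transcript length instead would give between 1.41 (Cox6a2) and 2.24 (Cox8b) times as many reads, so the length correction weighs unequally on these short transcripts.

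**Figure D1:**
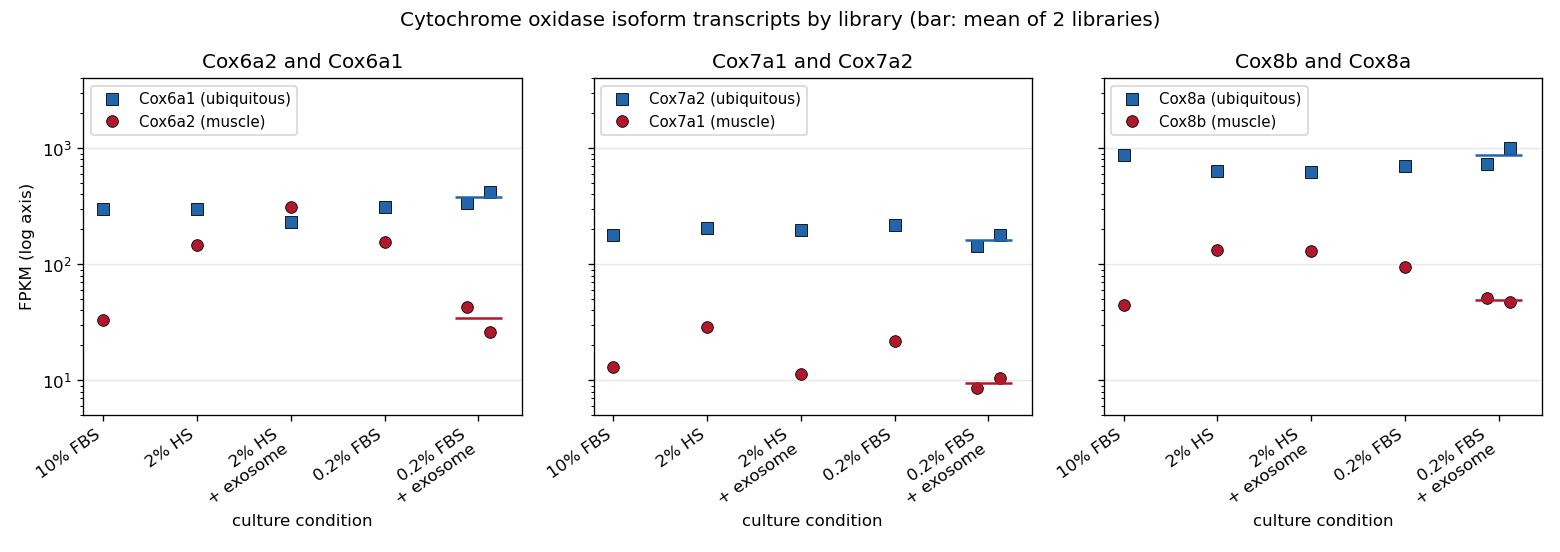
FPKM (log axis) of the muscle isoform (red circles) and its ubiquitous partner (blue squares) in each of the 6 libraries, by condition; horizontal bars are the mean of the 2 libraries of 0.2% FBS + exosome. Cox6a2 spans 26.3 to 311 FPKM and passes its partner in 2% HS + exosome, whereas Cox7a1 and Cox8b stay below theirs in every library.

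Cox7a1 was lower with exosomes in both media. It encodes the muscle form of subunit 7A, a small subunit at the surface through which complex IV contacts its neighbours in the membrane. Cox7a1 was at 12.9 FPKM in 10% FBS, 28.5 FPKM in 2% HS, 11.4 FPKM in 2% HS + exosome and 21.8 FPKM in 0.2% FBS. Its levels in 0.2% FBS + exosome were 8.57 FPKM (replicate 1) and 10.5 FPKM (replicate 2). Both libraries of reduced serum without exosomes were thus above growing cells, and all 3 exosome libraries were below them. Exosomes in 0.2% FBS went with a log2 change of −1.25 for replicate 1 and −0.98 for replicate 2. Their mean was −1.12 (SD 0.19, n = 2). As deposited, the mean is past the limit only through replicate 1. After scaling, replicates 1 and 2 were both past it, at −1.32 and −1.11. In 2% HS the change was −1.26 as deposited. The log2 difference from 10% FBS was 1.09 in 2% HS and 0.71 in 0.2% FBS. Cox7a1 is the least abundant of the 6 genes, with an estimated 58 to 214 reads in a library (118 to 434 if the whole transcript is counted).

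Cox7a2, the ubiquitous form, stood at 178 FPKM in 10% FBS, 206 FPKM in 2% HS, 196 FPKM in 2% HS + exosome, 216 FPKM in 0.2% FBS, and 143 and 180.0 FPKM in the replicates of 0.2% FBS + exosome. Its highest level was 1.51 times its lowest, the smallest range of the 6 genes. The log2 change with exosomes was −0.59 and −0.26 in the replicates of 0.2% FBS (mean −0.43, SD 0.23, n = 2) and −0.07 in 2% HS. Cox7a1 made up 6.74% of the pair in growing cells, 12.2% in 2% HS and 9.15% in 0.2% FBS. With exosomes the share was 5.48% in 2% HS, and 5.65% and 5.53% in replicates 1 and 2 of 0.2% FBS, so that the 3 exosome libraries of both media were close to one another. The balance of Cox7a1 to Cox7a2 differed with exosomes by −0.66 and −0.72 in 0.2% FBS (mean −0.69, SD 0.04, n = 2) and by −1.18 in 2% HS. Part of the difference of Cox7a1 in 0.2% FBS was thus shared by Cox7a2.

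The coding sequences of Cox7a1 (240 bases) and Cox7a2 (249 bases) are identical at 150 of 240 aligned bases (62.5%). Their longest common run, again of 12 bases, is shown in capitals. On mm10 the windows are chr7:30185291-30185320 on the plus strand for Cox7a1 and chr9:79756316-79756345 on the minus strand for Cox7a2:
Cox7a1: cagtacactTGAAAGGCGGGGgaatggaca
Cox7a2: cagttcatcTGAAAGGCGGGGcatctgatg

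Cox7a1 (chr7:30184144-30186078, plus strand) and Cox7a2 (chr9:79755361-79759878, minus strand) have 4 exons each, and neither overlaps another annotated gene.

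Cox8b was lower with exosomes in 0.2% FBS and nearly the same with and without them in 2% HS. It encodes the muscle form of subunit 8, one of the smallest of the complex. Cox8b was at 45.0 FPKM in 10% FBS, 132 FPKM in 2% HS, 130 FPKM in 2% HS + exosome and 94.8 FPKM in 0.2% FBS. With exosomes in 0.2% FBS it was at 51.0 FPKM (replicate 1) and 47.7 FPKM (replicate 2). The libraries thus formed a high trio, with both libraries of 2% HS above that of 0.2% FBS, and a low trio of growing cells and both exosome libraries of 0.2% FBS. The log2 change with exosomes in 0.2% FBS was −0.88 and −0.98 in replicates 1 and 2 (mean −0.93, SD 0.07, n = 2), just inside the limit as deposited and just past it, at −1.04, after scaling to the same 75th percentile. In 2% HS it was −0.02 as deposited and 0.01 after scaling. Relative to 10% FBS, the log2 difference was 1.53 in 2% HS and 1.06 in 0.2% FBS.

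Cox8a, the ubiquitous form, was the most abundant of the 6 genes, at 875 FPKM in 10% FBS, 634 FPKM in 2% HS, 627 FPKM in 2% HS + exosome, 706 FPKM in 0.2% FBS, and 738 and 1009 FPKM in its exosome replicates. Unlike the other ubiquitous partners, it was lower in reduced serum than in growing cells, with log2 differences of −0.46 in 2% HS and −0.31 in 0.2% FBS. With exosomes it differed by 0.06 and 0.51 in 0.2% FBS (mean 0.29, SD 0.32, n = 2) and by −0.02 in 2% HS. The change in replicate 1 became −0.01 and that in 2% HS became 0.02 after scaling, so neither has a stable sign. Cox8b made up 4.89% of the pair in growing cells, 17.2% in 2% HS, 17.1% in 2% HS + exosome and 11.8% in 0.2% FBS. In 0.2% FBS + exosome the share was 6.46% in replicate 1 and 4.51% in replicate 2, on both sides of growing cells. The balance differed with exosomes by −0.95 and −1.49 in 0.2% FBS (mean −1.22, SD 0.38, n = 2) and by −0.007 in 2% HS.

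The coding sequences of Cox8b (210 bases) and Cox8a (207 bases) are the least alike of the 3 pairs, with 112 of 201 aligned bases identical (55.7%). The longest common run has 10 bases, in capitals. On mm10 the windows are chr7:140899000-140899029 for Cox8b and chr19:7215395-7215424 for Cox8a, both on the minus strand:
Cox8b: ttagcccactTGGAGAGCTAtaaaaagagc
Cox8a: ctgtcacaccTGGAGAGCTAcaagaagcgg

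Cox8b (chr7:140898945-140900446) and Cox8a (chr19:7215153-7217616) lie on the minus strand with 2 exons each, and neither overlaps another annotated gene. All 3 muscle isoforms are thus on chromosome 7, and their partners on chromosomes 5, 9 and 19. Between muscle isoforms of different subunits the longest common coding run has 6 to 8 bases. Cox8b had an estimated 256 to 820 reads in a library and Cox8a 7487 to 12099.

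**Figure D2:**
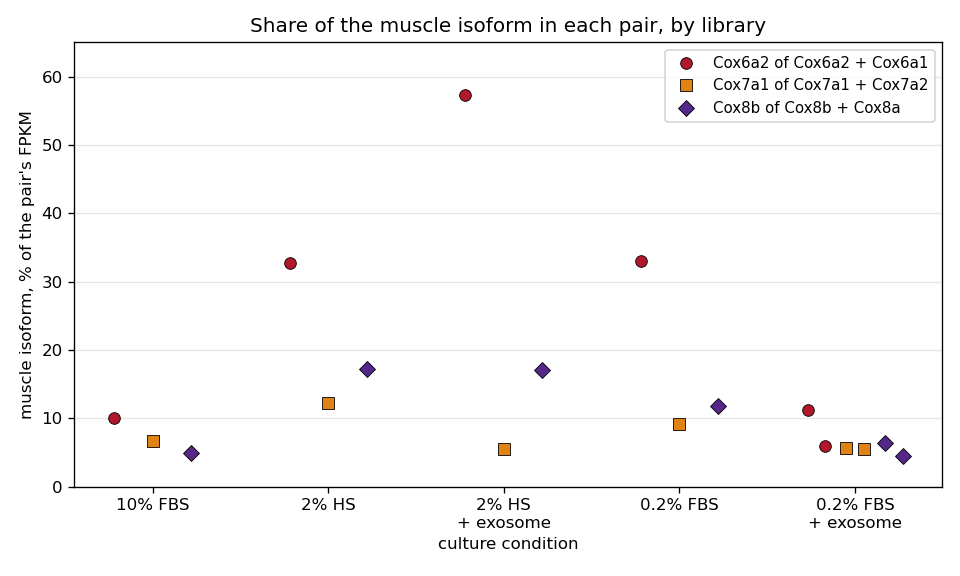
Muscle isoform as a percentage of the FPKM of its pair (linear axis from 0) in each library; circles, squares and diamonds are the pairs of subunits 6A, 7A and 8, and the 2 libraries of 0.2% FBS + exosome are drawn side by side. The 3 shares are higher in both media without exosomes than in 10% FBS, lie between 4.51% and 11.2% in 0.2% FBS + exosome, and part in 2% HS + exosome, at 57.3%, 5.48% and 17.1%.

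Serum reduction without exosomes thus went with a higher share of the muscle form in each pair, in both media. In 2% HS all 3 muscle isoforms were higher than in 10% FBS past the limit, as were 1.79% of all genes tested. In 0.2% FBS this held for Cox6a2 and Cox8b, again beside 1.79% of all genes, and Cox7a1 remained inside the limit. None of the 3 ubiquitous partners was past it in either medium. The rule that chose the genes used these libraries, so nothing is read from these counts. The summed myotube markers were likewise higher in both media than in 10% FBS, and their part in these differences was not tested.

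With exosomes in 0.2% FBS, Cox6a2 and Cox7a1 were lower past the limit on the mean of both libraries, as were 2.25% of all genes tested. Of the 6 genes, Cox6a2 alone was past it in each library as deposited, as were 1.61% of all genes (173 genes). After scaling to the same 75th percentile, Cox7a1 was also past it in each library (−1.32 and −1.11), where 212 of all genes were. None of the 6 was higher past the limit, where 1.8% of all genes were. Scaling to the same 75th percentile turned 241 lower and 193 higher genes into 287 and 135. In 2% HS, Cox7a1 was among the 0.298% of genes lower past the limit, and Cox6a2 among the 0.354% higher past it. The summed myotube markers were lower with exosomes in 0.2% FBS together with all 3 muscle isoforms, but in 2% HS their sum was at 8931 FPKM with and 9533 FPKM without exosomes, while Cox6a2 was 2.14 times as high with exosomes and Cox7a1 was at 0.398 times its level. As deposited, 4 of the 6 myotube markers were lower and 2 higher with exosomes in 2% HS, between −0.40 (Des) and 0.35 (Myog). The part of the markers in the isoform differences was not tested.

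**Figure D3:**
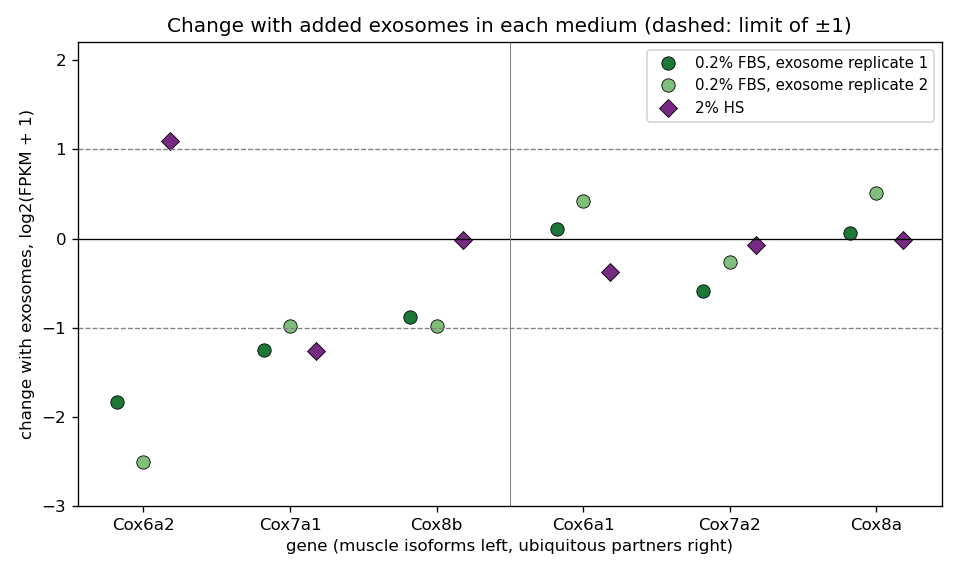
Change with exosomes on the log2(FPKM + 1) scale for each gene, with muscle isoforms on the left; circles are replicates 1 and 2 of 0.2% FBS + exosome against the same control library, diamonds are 2% HS, and dashed lines mark the limit of 1 and −1. In 0.2% FBS all 3 muscle isoforms lie between −2.51 and −0.88, and in 2% HS they lie at 1.09, −1.26 and −0.02.

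The 2% HS + exosome library ranked highest for Cox6a2, just below the 2% HS library for Cox8b and among the low libraries for Cox7a1. Replicates 1 and 2 of 0.2% FBS + exosome give the only measure of spread, and that of the single libraries is unknown. On the log2 scale, 2% HS and 0.2% FBS differed by less than these replicates did for Cox6a2, and 10% FBS lay between the replicates. For Cox8b the difference was also smaller than between the replicates for 2% HS with and without exosomes, and for 10% FBS and replicate 2. For Cox7a1 it held for neighbours among replicate 2 of 0.2% FBS + exosome, 2% HS + exosome and 10% FBS. For Cox8a and Cox7a2, no library differed from its neighbour in the order by more than the replicates did. For Cox6a1 this was so except for 2% HS + exosome, which lay below its neighbour by more than that.

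The genes whose log2 levels followed a muscle isoform most closely over the 6 libraries differed between the 3. They were taken from the 1296 genes that averaged 1 FPKM or more and spanned at least 1 on the log2 scale, and Pearson's r is given as a measure of likeness, without a test. For Cox6a2 they were Smpdl3b (r = 0.994), Fgf21 (0.993), Stx11 (0.991), Gdnf (0.991) and Arhgef6 (0.991). Fgf21, a secreted metabolic hormone, differed by −1.65 with exosomes in 0.2% FBS and by 1.17 in 2% HS. Smpdl3b differed by −0.99 and 0.66, Stx11 by −0.87 and 0.41, Gdnf by −0.88 and 0.28, and Arhgef6 by −1.10 and 0.31. For Cox7a1 they were Lman1l (r = 0.978), Sbk2 (0.969), Casq1 (0.947), Pgam2 (0.940) and Ckb (0.936). Lman1l differed by −1.20 and −0.97 in 0.2% FBS and 2% HS, Sbk2 by −0.83 and −0.99, and Ckb by −0.99 and −1.37. Casq1, the calcium-binding protein of the fast-fibre sarcoplasmic reticulum, differed by −0.82 and −0.88. Pgam2, the muscle form of the glycolytic enzyme phosphoglycerate mutase, differed by −1.06 and −0.64. For Cox8b they were Suox (r = 0.997), Asb16 (0.997), Uqcc1 (0.993), Avpi1 (0.989) and Trim63 (0.988). Suox differed by −0.81 in 0.2% FBS and −0.05 in 2% HS, Asb16 by −0.65 and 0.11, and Avpi1 by −0.64 and 0.17. Uqcc1, an assembly factor of complex III of the same respiratory chain, differed by −0.85 and 0.09. Trim63, a muscle ubiquitin ligase, differed by −0.77 and −0.05. No gene is named for more than 1 of the isoforms.

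Opposite signs with exosomes in the 2 media were common, and held in either direction for 45.7% of all genes tested. The direction of Cox6a2, lower in 0.2% FBS and higher in 2% HS, held for 1293 genes. Past the limit only this direction was counted: among the 10726 genes, 10 were lower past the limit in each exosome library of 0.2% FBS and higher past it in 2% HS. They are Cox6a2 and, named after their values were seen, Adm2, Aldh1l2, Asns, Chil1, Fgf21, Mthfd2, Myh8, Phgdh and Trib3. Asns makes asparagine, Phgdh begins serine synthesis, Mthfd2 and Aldh1l2 are mitochondrial enzymes of folate metabolism, Trib3 is a pseudokinase of the stress response, and Myh8 is the perinatal myosin heavy chain. The other 9 differed by between −2.17 and −1.07 in 0.2% FBS and between 1.05 and 2.43 in 2% HS, beside −2.17 and 1.09 for Cox6a2. Myh8 had nearly the same changes with exosomes as Cox6a2, at −2.17 and 1.07, the changes by which both were selected. Without exosomes the 2 genes were less alike. Myh8 was at 9.88 FPKM in 10% FBS, 13.2 in 2% HS and 31.8 in 0.2% FBS, and Cox6a2 at 33.2, 146 and 154.

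As deposited, Cox7a1 was lower past the limit in 2% HS (−1.26) and on the mean of both libraries of 0.2% FBS (−1.12). In replicate 2 of 0.2% FBS + exosome, Cox7a1 was inside the limit as deposited (−0.98) and past it after scaling (−1.11). As deposited, 4 genes were lower past the limit in each exosome library of 0.2% FBS and in 2% HS. This rule is stricter than that of the mean, which more genes met. The 4 genes are named after their values were seen. Fdps and Idi1 are enzymes of the mevalonate pathway, Nsdhl is an enzyme of sterol synthesis, and Gpr56 is an adhesion receptor. In 0.2% FBS and 2% HS, Fdps differed by −1.48 and −1.25, Idi1 by −1.79 and −1.93, Nsdhl by −1.55 and −1.62, and Gpr56 by −1.90 and −1.16.

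The other complex IV subunits differed less with exosomes in 0.2% FBS than the muscle isoforms did. A list of 16 other subunit genes, chosen with results of these data known, had 13 members in the table, of which 10 reached a mean of 1 FPKM. The genes of the catalytic core in mitochondrial DNA were not analysed here. Cox4i2 and Cox6b2, isoforms of other subunits, stayed below 0.22 FPKM, and Cox8c was at 0 in every library. With exosomes in 0.2% FBS the median change of the 10 was −0.37 (−0.51 for replicate 1 and −0.25 for replicate 2), against 0.14 over all genes tested, and 8 of the 10 were lower in each exosome library, as were 27.5% of all genes. After scaling, the median was −0.47 and 8 of the 10 were again lower in each, beside 37.1% of all genes. The values ran from −0.55 for Cox6b1 to 0.34 for Cox7a2l, a relative of subunit 7A that acts in supercomplexes. Cox4i1, the most abundant of the list on the mean over all libraries, was at 729 FPKM in 10% FBS, 839 in 2% HS, 769 in 2% HS + exosome, 855 in 0.2% FBS, and 704 and 852 in the replicates of 0.2% FBS + exosome. In 2% HS, Ndufa4 was above it both without (920 FPKM) and with exosomes (778 FPKM). In 2% HS the median was −0.10 and the range −0.24 to 0.08. Between growing and reduced serum, 9 of the 10 were higher in each medium, as were 31.4% of all genes tested. Their median was 0.29 in 2% HS and 0.28 in 0.2% FBS, against −0.08 and −0.09 over all genes. Cox7a2 (−0.43 with exosomes in 0.2% FBS) thus lay within the range of these subunits, and the muscle isoforms lay below its lowest member.

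Among 25 assembly and partner genes, all with a mean above 1 FPKM, the median change with exosomes was −0.12 in 0.2% FBS and −0.07 in 2% HS. By library the median in 0.2% FBS was −0.24 for replicate 1 and −0.01 for replicate 2, so its size rests on replicate 1. Cox17, the copper chaperone of the complex and the most abundant of the list, differed by −0.45 and 0.02. Both exosome replicates of 0.2% FBS were below the control for 13 of the 25 and above it for 6, and after scaling they were below it for 18. Over all genes tested, 27.5% were below it in both and 55.2% above it, and 37.1% were below it after scaling. None of the 35 subunit and assembly genes was past the limit in either medium. Of all genes tested, 2.25% were lower and 1.8% higher past it in 0.2% FBS. In 2% HS these shares were 0.298% and 0.354%. With shares this small, nothing is read from the count for the 35 genes. When limma was fitted to the 5 differentiating libraries with a term for medium and a single exosome effect, it gave 0% of the 10726 genes and 0 of these 35 an adjusted p under 0.05. The smallest adjusted p among the 35 was 0.705, and 3 had an unadjusted p under 0.05, as did 708 of all genes. A limma fit with 1 mean per condition, whose spread rests on the 2 libraries of 0.2% FBS + exosome alone (1 residual degree of freedom), gave 12.5% of all genes and 3 of the 35 an adjusted p under 0.05 within 0.2% FBS. Those p-values measure the closeness of 2 libraries and not the spread of the control. The 3 were Sco1, a copper chaperone, at −0.65, Cycs, which is cytochrome c, at −0.70, and Pet117 at −0.72.

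**Figure D4:**
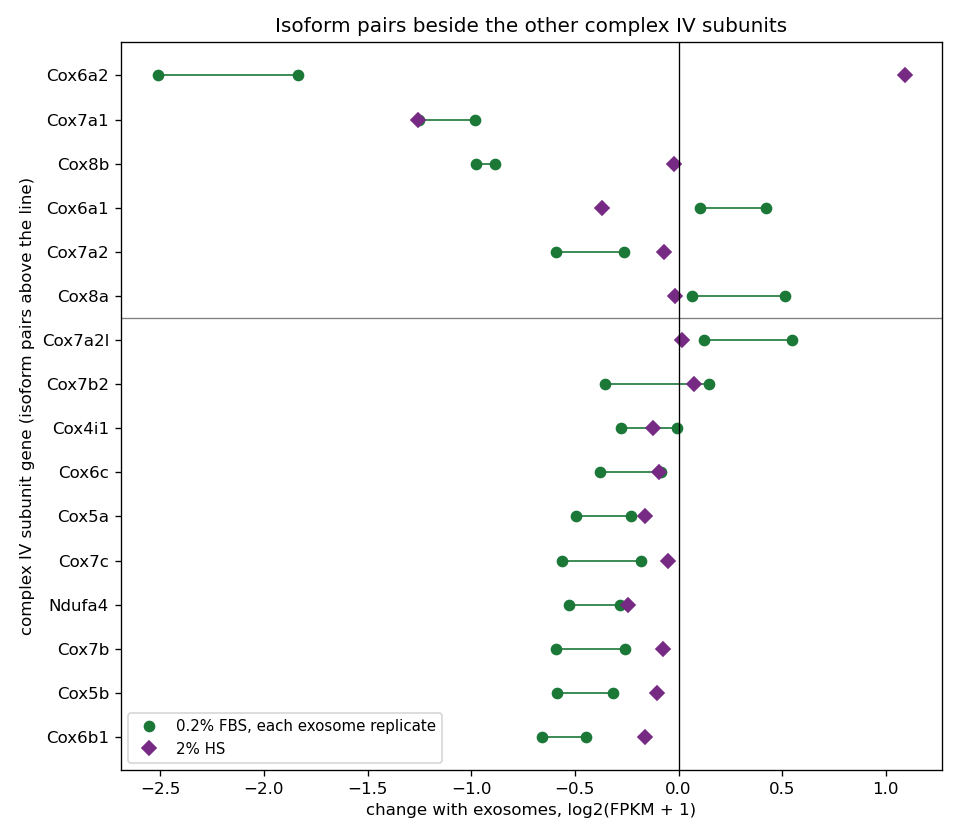
Change with exosomes on the log2(FPKM + 1) scale for the 6 isoform genes (above the line) and the 10 other complex IV subunits with a mean of at least 1 FPKM (below it); green points joined by a line are replicates 1 and 2 of 0.2% FBS + exosome, diamonds are 2% HS. The other subunits have means between −0.55 and 0.34 in 0.2% FBS, whereas Cox6a2, Cox7a1 and Cox8b lie at −2.17, −1.12 and −0.93.

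The promoters of the members differ in composition. In RefSeq promoters of GRCm38.p6 (250 bases before to 50 after the RefSeq start), matched by symbol for 5 of the 6 genes, the ubiquitous Cox6a1, Cox7a2 and Cox8a hold 32, 20 and 19 CG dinucleotides, and the muscle isoforms Cox7a1 and Cox8b hold 7 and 2. The median over 32851 promoters is 7, with quartiles of 3 and 20. Cox6a2 was not matched. Both strands were searched for the letters CANNTG, the general E-box of myogenic and other factors, its form CAGCTG, the ETS-type motif CCGGAAG, the nuclear receptor half-site AAGGTCA, the TATA-type motif TATAA and the MEF2 site. CAGCTG occurs in Cox8b only, at 2 positions (16.3% of all promoters hold it), and these are also its 2 matches to CANNTG. The ETS-type motif CCGGAAG occurs once in Cox6a1 and at 2 positions in Cox8a (8.86% of all promoters). CANNTG occurs once each in Cox7a1, Cox7a2 and Cox8a (72.3% of all promoters). TATAA occurs in Cox8b only, after the RefSeq start (24.9%), and neither AAGGTCA (4.72%) nor the MEF2 site (3.19%) was found in the 5 windows. A match is a description of letters, not a binding site. The 30 bases around 1 match are shown for Cox8b (chr7:140900448-140900477) and Cox6a1 (chr5:115348959-115348988), both on the minus strand, as the muscle and the ubiquitous example, with CAGCTG and the reverse complement of CCGGAAG in capitals. The matches begin 19 and 16 bases before the RefSeq starts, and that of Cox6a1 lies inside the GENCODE gene given above, whose start is further upstream:
Cox8b: tgtgacaggagaCAGCTGcagctctccacc
Cox6a1: cgtccccatttccgCTTCCGGcgcgccggt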

How the data were processed

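RNA of C2C12 cells was made into TruSeq Stranded mRNA libraries and read as 75 bp single-end reads. Per the labels and the study's methods, the authors trimmed reads with cutadapt 1.9.1, mapped them to mm10 with TopHat2 2.1.0 and computed FPKM with Cufflinks; they deposited 1 table of FPKM with a column per library. The annotation and strand setting of the FPKM step are not given in the sources used here. No counts were used, so no counting interval is given; depth was estimated from the FPKM steps of genes whose only transcript exceeds 1000 bases (between 73.8% and 77.7% of low values within 0.1 of a whole read, where 20% would lie by even spacing).

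The members and gene lists were chosen with earlier results of these data known. Values were compared as log2(FPKM + 1), which understates the change of low genes, with the study's limit of 1 and −1 over 10726 uniquely named genes averaging 1 FPKM or more. Named genes are the 6 members, list genes past the limit in each exosome library of 0.2% FBS or in 2% HS, the most abundant of each list, and the 5 genes most like each muscle isoform by Pearson's r; other genes were named after their values were seen. limma 3.58.1 (R 4.3.3), with a mean-variance trend and Benjamini-Hochberg adjustment over all genes, was the only test across genes; it was fitted to all 10726 genes, the members included, and read for genes that are no members. The fit was also run on simulated data, and nothing here is read from that run. The limma p-values measure only the spread between these libraries. Positions and transcripts come from GENCODE vM21, and promoters from RefSeq. A planned comparison of protein sequences was not made. Alternatives were 2 other treatments of low values, scaling to the same 75th percentile, no filter, and leaving out each replicate of 0.2% FBS + exosome. Some genes are not reported here.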

Additional observations from a re-analysis of the deposited data

Results flagged for a closer look

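The change with exosomes went one way in both libraries of 0.2% FBS and the other way in the library of 2% HS for 3 of the 6 genes, as for 45.7% of the 10726 genes tested (43.6% after scaling to the same 75th percentile). Subtracting the 2% HS change from the 0.2% FBS change gave −3.27 for Cox6a2, 0.63 for Cox6a1 and 0.30 for Cox8a on the log2 scale. For Cox8a the signs of replicate 1 and of 2% HS turn after that scaling (−0.01 and 0.02), and Cox8b takes its place among the 3, since its change in 2% HS turns to 0.01. The balance of Cox6a2 to Cox6a1 also went opposite ways, with a difference of −3.90. These differences were not tested, since the genes were chosen with these values known and 2% HS has 1 library with and 1 without exosomes. Medium and single culture cannot be told apart.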

How the results depend on the processing

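Of 84 member changes recomputed, 2 changed sign (Cox8a and Cox8b with exosomes in 2% HS, both near 0) and 2 crossed the limit: Cox7a1 in 0.2% FBS was at −0.98 without replicate 1, and Cox8b at −1.04 after scaling to the same 75th percentile. Scaled changes by replicate are not among the 84. In replicate 2 of 0.2% FBS + exosome, scaling took Cox7a1 from −0.98 to −1.11 and Cox8b from −0.98 to −1.12. Cox7a1 was then past the limit in each replicate, as Cox6a2 was. None of 30 balance values changed sign. The balance of Cox7a1 to Cox7a2 depended most on low values: with a pseudocount of 0.1 it differed by −0.76 with exosomes in 0.2% FBS, −1.25 in 2% HS, and 0.93 between 10% FBS and 2% HS; with values below 1 FPKM raised to 1 these were −0.77, −1.26 and 0.94, and 0.48 between 10% FBS and 0.2% FBS. In 2% HS, 57 or 54 genes were lower and 69 higher past the limit with these settings, in place of 32 and 38; in 0.2% FBS, 353 or 350 were higher in place of 193. Under the same treatments of low values, 322 or 316 genes were lower in 0.2% FBS in place of 241. Leaving out a replicate gave 155 to 312 higher genes, the larger without replicate 1. Of the 35 other complex IV genes, 1 (Pet117) was past the limit in 0.2% FBS under both treatments of low values, and 3 passed limma with 1 mean per condition; their median change in 0.2% FBS, −0.15, was −0.09 without replicate 1 and −0.29 without replicate 2. In the titles, 1 library with and 1 without exosomes share a number in each medium, and replicate 2 of 0.2% FBS + exosome has a number of its own with no control, so it adds nothing to a paired estimate; limma with this number as a replicate block, an alternative added after seeing the data, gave 0 of the 35 genes an adjusted p under 0.05, 1 an unadjusted one, and 0 and 295 of all genes. Each condition but 1 has a single library, and Cox7a1 rests on the fewest reads.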

Other observations

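A list of 12 regulators of mitochondrial gene expression was also examined. Ppargc1a, the coactivator known for raising mitochondrial genes in muscle, did not exceed 0.0519 FPKM, and 7 of the 12 reached a mean of 1 FPKM. All 7 were lower in both reduced-serum media than in 10% FBS, as were 52.8% of all genes tested, with medians of −0.23 in 2% HS and −0.18 in 0.2% FBS, where all genes tested had −0.08 and −0.09. With exosomes their medians were 0.16 in 0.2% FBS and −0.01 in 2% HS, near those of all genes tested, 0.14 and −0.04. By library the median in 0.2% FBS was 0.08 for replicate 1 and 0.21 for replicate 2, beside 0.09 and 0.18 over all genes. Esrra, a nuclear receptor of mitochondrial genes and the most abundant of them on the mean over all libraries, was between 14.8 and 23.9 FPKM in the 6 libraries.

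A muscle and ubiquitous pair outside complex IV was also measured. Slc25a4, the adenine nucleotide carrier of muscle and heart mitochondria, was at 429 FPKM in 10% FBS, 438 in 2% HS and 435 in 0.2% FBS, so its levels in growing cells and in reduced serum were close. With exosomes it was at 336 FPKM in 2% HS and at 371 and 480.4 FPKM in the replicates of 0.2% FBS. Its ubiquitous partner Slc25a5 differed with exosomes by −0.46 and −0.12 in replicates 1 and 2 of 0.2% FBS (mean −0.29) and by −0.24 in 2% HS.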
